A study of Mus musculus with 9 samples.

Results

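DnaJ proteins, also called Hsp40 proteins, are the partners that bring unfolded clients to Hsp70 chaperones. Each carries a J domain, whose His-Pro-Asp motif drives ATP hydrolysis by Hsp70 and so locks the client in place. Class A members resemble bacterial DnaJ, with a glycine- and phenylalanine-rich stretch and zinc-binding repeats, class B members keep the glycine- and phenylalanine-rich stretch without the zinc repeats, and class C members share little beyond the J domain and mostly serve 1 compartment or task. Several class A and B members of the cytosol belong to the heat shock response, in which HSF1 binds heat shock elements in promoters, and several members of the endoplasmic reticulum (ER) belong to the unfolded protein response. The roles given below come from work on mammalian and yeast proteins and are background to the values.

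The family was taken as every gene whose symbol starts with Dnaja, Dnajb or Dnajc followed by a number, which gave 42 of the 18049 genes in the table: 4 of class A, 12 of class B and 26 of class C. RNA was measured in macrophages grown from bone marrow of C57BL/6 mice aged 8 weeks, with no genetic change named in the labels. Cells were exposed for 6 h to the compound labelled 15d-PGJ2-PC at 1 µM, to 15d-PGJ2 (a cyclopentenone prostaglandin) at 1 µM, or to medium alone as the control, with 3 libraries in each group and 9 in all. The letters PC are not spelled out in the labels, and its structure is not described here. No label says whether the libraries of a group came from separate cultures or animals, so every p-value rests on a spread that may be purely technical. Levels are in FPKM, which is scaled to gene length and depth and can therefore be compared between genes.

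Library depth, estimated from the steps between low FPKM values, was 5.34 to 5.50 M reads, and 10876 to 11026 genes reached 1 FPKM in a library. Within a group, log2 levels correlated at 0.987 to 0.989 across genes, and between groups at 0.944 to 0.979. The 8 macrophage markers summed to 5794 to 5967 FPKM in 15d-PGJ2-PC libraries, 4954 to 5313 in 15d-PGJ2 libraries and 6476 to 6678 in control libraries. Of these 8, 6 were lower with 15d-PGJ2-PC than in control, 8 were lower with 15d-PGJ2 than in control, and 8 were higher with 15d-PGJ2-PC than with 15d-PGJ2. All 5 keratinocyte markers, all 6 tested stromal markers (7 listed) and all 3 tested erythroid markers (4 listed) were lower with either compound than in control. Keratinocyte markers summed to 0.51 to 1.37 FPKM with 15d-PGJ2-PC, 0.68 to 1.03 with 15d-PGJ2 and 20.1 to 24.6 in control, and Krt5, Krt14, Lor and Krt1 were listed at 0 in all 6 treated libraries. Stromal markers summed to 8.17 to 8.79 FPKM with 15d-PGJ2-PC, 8.71 to 11.3 with 15d-PGJ2 and 37.8 to 44.3 in control. Erythroid markers summed to 0 to 0.91 FPKM with 15d-PGJ2-PC, 0.33 to 0.76 with 15d-PGJ2 and 19.6 to 31.8 in control. Krt5, Krt14, Lor, Krt1 and the 3 tested erythroid markers thus reached 1 FPKM in control libraries only. They were tested only through the group where they are high, so their calls against control carry no support. At such low treated levels, a difference between the compounds could hardly pass. The keratinocyte, stromal and erythroid markers passed in neither direction between the compounds, whereas the macrophage markers differed in all 3 comparisons. Of 3 tested neutrophil markers (6 listed), 1 was higher and 1 lower with 15d-PGJ2-PC than in control. With 15d-PGJ2, 1 of them was higher and 2 were lower. Of 2 tested dendritic markers (4 listed), 0 were higher and 1 was lower with each compound. Between the compounds, 2 neutrophil markers and 1 dendritic marker were higher with 15d-PGJ2-PC, and 0 were lower. The part of these markers in the results below was not tested. In bulk RNA, fewer cells of a type and less RNA per cell cannot be told apart.

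The test took in the 11309 genes that reached 1 FPKM in 3 or more libraries, among them 38 of the 42 members. Dnajb3 reached at most 1.27 FPKM, Dnajb7 0.62, Dnajc22 0.12 and Dnajc6, the clathrin-uncoating auxilin, 0.07, and these 4 were not tested. Just inside the filter, Dnajb13 reached 1 FPKM in 3 libraries and Dnajc27 in 7. Dnaja4 reached it in 6, all of them treated, so its passing the filter already depended on the compounds. Its calls against control are included in the counts below but carry no support. Every call below is from limma's moderated test on log2(FPKM + 1), with p-values adjusted over all 11309 genes by the Benjamini-Hochberg method at a threshold of 0.05. Where libraries are said not to overlap between groups, this only describes them, since its share over all tested genes was not computed.

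With 15d-PGJ2-PC, 10 of the 38 tested members were higher than in control and 2 were lower (26.3% and 5.26%), beside 13.8% and 14.1% of all tested genes. With 15d-PGJ2, 14 were higher and 5 lower than in control (36.8% and 13.2%), beside 22.2% and 25.0% of all tested genes. Directly compared, 3 members were higher and 6 lower with 15d-PGJ2-PC than with 15d-PGJ2 (7.89% and 15.8%), beside 12.3% and 8.30% of all tested genes. That last split depended on scaling, being 2 higher and 11 lower after quantile normalization and 3 higher and 10 lower after median centring. The median log2 change over the members was 0.06 for 15d-PGJ2-PC against control, 0.05 for 15d-PGJ2 against control and -0.07 for 15d-PGJ2-PC against 15d-PGJ2, while the medians of all tested genes in those comparisons were -0.0038, -0.02 and 0.02.

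The change was uneven between classes. All 4 class A genes were higher with 15d-PGJ2-PC than in control (median log2 change 0.62) and 3 of 4 with 15d-PGJ2 (median 1.34). In class B, 6 of 10 tested genes were higher and 1 lower with 15d-PGJ2-PC (median 0.35), and 6 were higher and 2 lower with 15d-PGJ2 (median 0.46). In class C, 0 of 24 tested genes were higher and 1 was lower with 15d-PGJ2-PC (0% and 4.17%, median 0.01). With 15d-PGJ2, 5 were higher and 3 lower (20.8% and 12.5%, median -0.01). Of all tested genes, 13.8% were higher and 14.1% lower with 15d-PGJ2-PC, and 22.2% and 25.0% with 15d-PGJ2. No class C share was thus above that background. The spread of the changes is drawn in the plot of log2 changes by member.

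**Figure D1:**
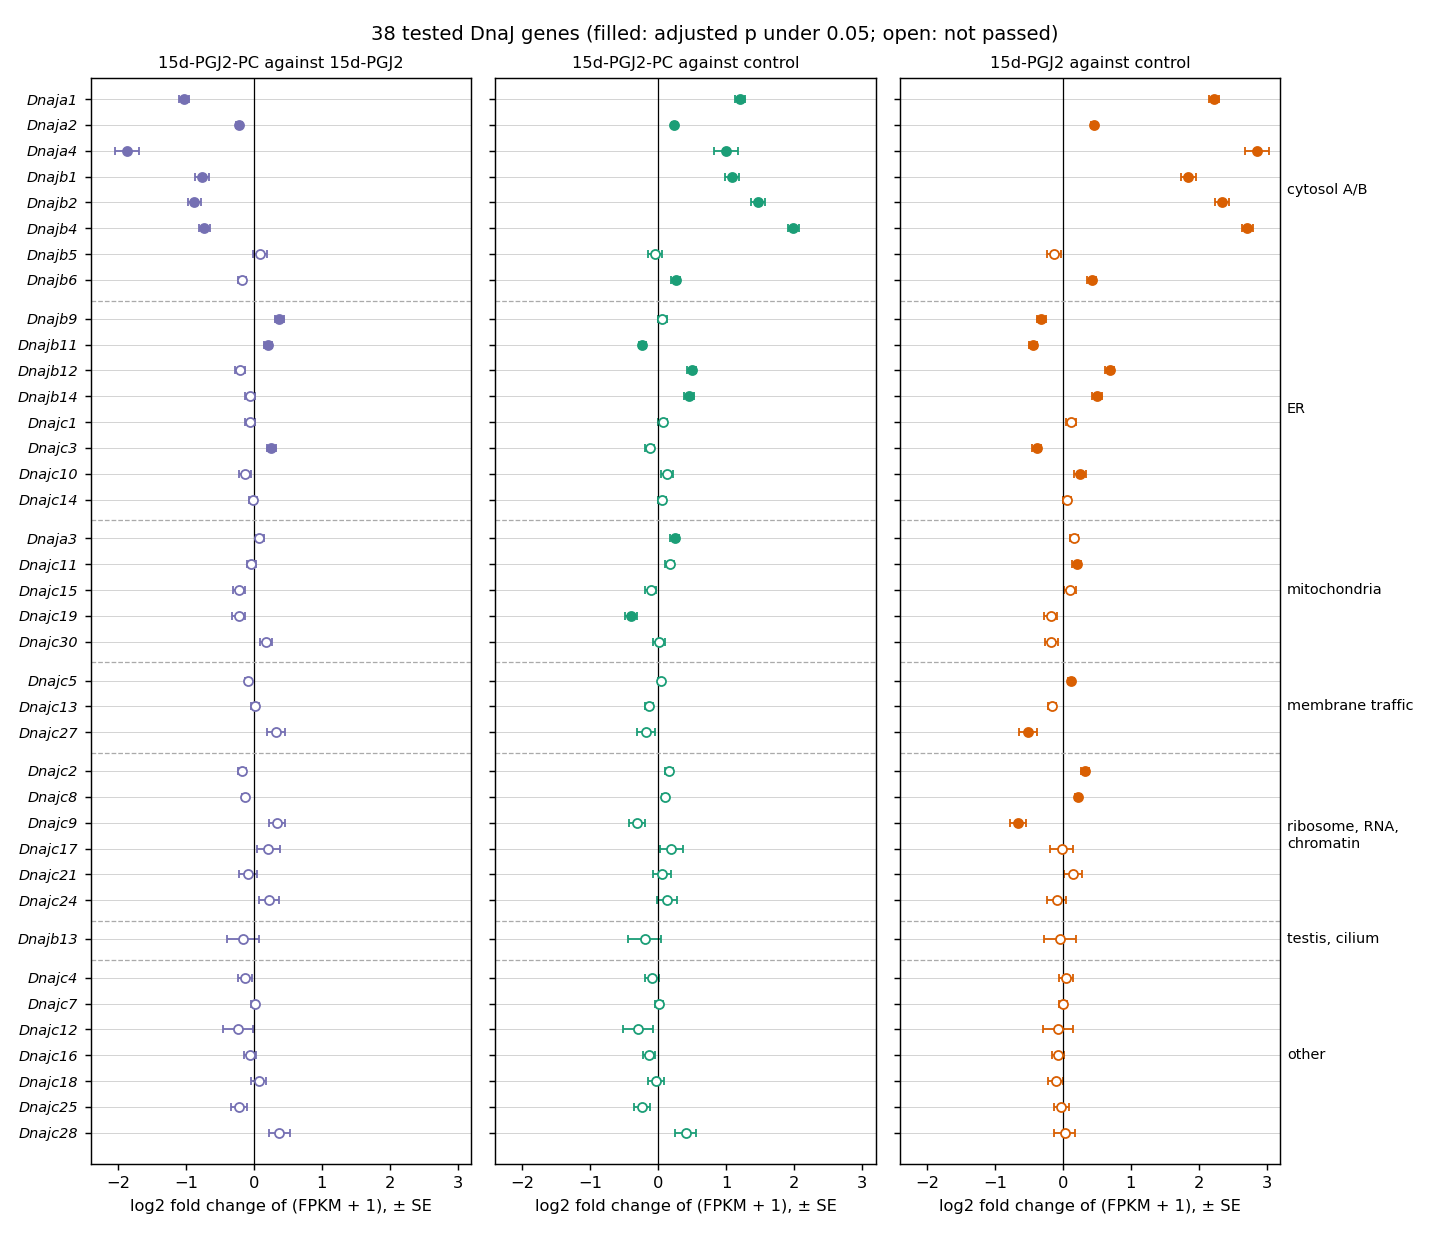
Log2 change of log2(FPKM + 1) for each of the 38 tested DnaJ members, grouped by role, with a panel for each comparison; bars are the standard error, and filled symbols passed the test. Changes that passed against control reach 1.99 with 15d-PGJ2-PC (Dnajb4) and 2.86 with 15d-PGJ2 (Dnaja4), both on the cytosolic list. Dnaja4 passed the filter only through treated libraries.

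Summed over its 42 members, the family amounted to 927 ± 11.7 FPKM with 15d-PGJ2-PC, 1145 ± 54.4 with 15d-PGJ2 and 778 ± 13.1 in control (SD, n = 3 each). Class A carried most of the difference, with 199.7 ± 6.47 FPKM with 15d-PGJ2-PC, 342 ± 31.8 with 15d-PGJ2 and 117 ± 2.40 in control. Class B summed to 281 ± 3.75 FPKM with 15d-PGJ2-PC, 339 ± 15.7 with 15d-PGJ2 and 214 ± 2.70 in control. Class C summed to 447 ± 2.40 FPKM with 15d-PGJ2-PC, 464 ± 11.7 with 15d-PGJ2 and 447 ± 9.68 in control, where only its 15d-PGJ2 libraries lay above the others. The FPKM of all genes in a library was also highest with 15d-PGJ2. It summed to 481125 to 485559 with 15d-PGJ2-PC, 491021 to 492998 with 15d-PGJ2 and 469548 to 483422 in control. Sums were not scaled to these totals, and their part in the small class C difference was not tested. Class C made up 48.2% of the family's FPKM with 15d-PGJ2-PC and 40.6% with 15d-PGJ2, against 57.4% in control. Dnaja1 alone made up 13.1% of the family with 15d-PGJ2-PC, 21.7% with 15d-PGJ2 and 6.75% in control. Without it, the class A sum exceeded control by 13.2 FPKM with 15d-PGJ2-PC and by 27.5 FPKM with 15d-PGJ2. No p is given for these sums, since the members were chosen.

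**Figure D2:**
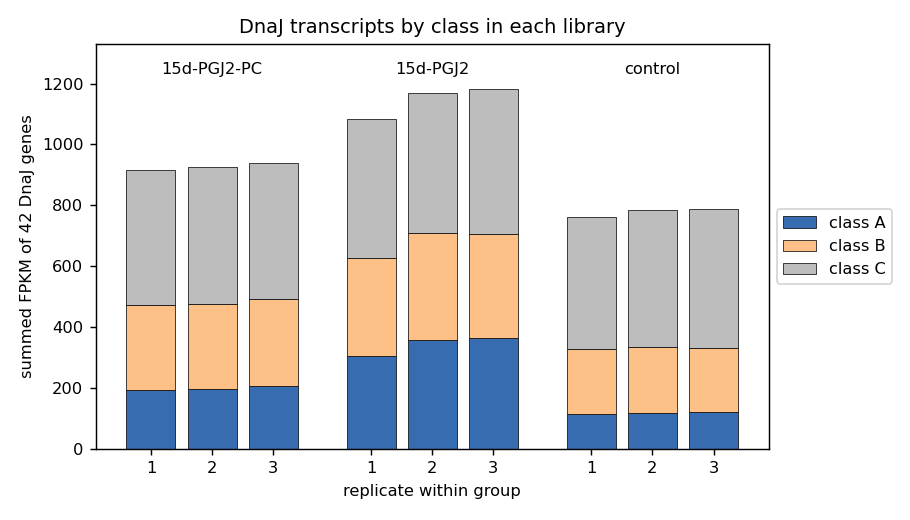
Summed FPKM of the 42 members in each of the 9 libraries (1 stacked bar per library, 3 per group), split into classes A, B and C. The sums of classes A and B do not overlap between the 3 groups, while class C lies between 436 and 478 FPKM in every library.

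The 8 cytosolic members of classes A and B held the strongest changes. With either compound, 7 of the 8 were higher than in control (87.5%, beside 13.8% of all tested genes for 15d-PGJ2-PC and 22.2% for 15d-PGJ2). The median log2 change was 1.04 for 15d-PGJ2-PC and 2.04 for 15d-PGJ2. Directly compared, 6 of the 8 were lower with 15d-PGJ2-PC than with 15d-PGJ2 (75.0%, beside 8.30% of all tested genes, median -0.75). Each of these counts includes Dnaja4, which passed the filter only through treated libraries. Outside this list, 3 of 30 tested members were higher and 2 lower with 15d-PGJ2-PC than in control, beside 13.8% and 14.1% of all tested genes. With 15d-PGJ2, 7 of the 30 were higher and 5 lower than in control (23.3% and 16.7%), beside 22.2% and 25.0%. The shares outside the list were thus close to or below those of all tested genes. On the log2(FPKM + 1) scale, calls with a rise of at least 2-fold were made in 4 members with 15d-PGJ2-PC (background 1.05%) and in 5 with 15d-PGJ2 (background 2.75%), every one of them on the cytosolic list. Dnaja4 with 15d-PGJ2-PC was just under 2-fold on that scale (log2 change 0.99), though its ratio of means was 4.91.

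Dnaja1 (Entrez 15502, chr4:40722150-40737149, plus strand, GRCm38), a farnesylated class A co-chaperone of Hsc70, was the most abundant member in treated cells. It stood at 116, 121 and 128 FPKM with 15d-PGJ2-PC, 218, 264 and 266 FPKM with 15d-PGJ2, and 50.7, 51.1 and 55.6 FPKM in control. The 3 groups did not overlap. Its mean was 2.32-fold higher with 15d-PGJ2-PC than in control (log2 change 1.20 ± 0.07 SE, adjusted p = 1.4e-06) and 4.75-fold higher with 15d-PGJ2 (log2 change 2.22 ± 0.07, adjusted p = 4.93e-09), and lower with 15d-PGJ2-PC than with 15d-PGJ2 (log2 change -1.02 ± 0.07, adjusted p = 9.98e-06). Dnaja1 shares 608 exon bases with Smu1 on the opposite strand, which passed in no comparison (20.8 ± 2.40, 18.5 ± 0.45 and 20.1 ± 0.62 FPKM with 15d-PGJ2-PC, with 15d-PGJ2 and in control). Whether counting used strand is not stated.

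Dnaja4 (Entrez 58233, chr9:54698873-54716315, plus strand), a class A relative of Dnaja1, was nearly silent in control and had the largest ratio of means to control of the family with either compound. Its levels were 1.49, 1.67 and 1.80 FPKM with 15d-PGJ2-PC, 6.16, 9.54 and 10.9 FPKM with 15d-PGJ2, and 0.41, 0.18 and 0.42 FPKM in control, without overlap. Its estimated reads per library ran from 2.96 in the lowest control to 176 in the highest 15d-PGJ2 library, so the control level is poorly fixed. The ratio of means to control was 4.91 with 15d-PGJ2-PC and 26.3 with 15d-PGJ2. On the log2(FPKM + 1) scale, which understates the change of so low a gene, the change was 0.99 ± 0.18 with 15d-PGJ2-PC (adjusted p = 0.00181) and 2.86 ± 0.18 with 15d-PGJ2 (adjusted p = 3.04e-07), and 15d-PGJ2-PC against 15d-PGJ2 gave -1.86 ± 0.18 (adjusted p = 4.36e-05). With a pseudocount of 0.1 in place of 1, the log2 change was 2.06 for 15d-PGJ2-PC against control, 4.37 for 15d-PGJ2 against control and -2.32 for 15d-PGJ2-PC against 15d-PGJ2. Dnaja4 shares 1581 exon bases with Wdr61 on the opposite strand, which stood at 19.9 ± 1.43, 20.7 ± 3.50 and 18.5 ± 3.21 FPKM with 15d-PGJ2-PC, with 15d-PGJ2 and in control and passed in no comparison.

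Dnaja2, the other major cytosolic class A protein, changed less on the log2 scale. Its libraries held 51.5, 49.9 and 51.8 FPKM with 15d-PGJ2-PC, 57.7, 59.6 and 61.1 with 15d-PGJ2, and 43.3, 42.2 and 44.1 in control. The groups did not overlap, and all 3 comparisons passed, with log2 changes of 0.24 ± 0.04 for 15d-PGJ2-PC against control (adjusted p = 0.00137), 0.45 ± 0.04 for 15d-PGJ2 against control (adjusted p = 5.3e-06) and -0.22 ± 0.04 for 15d-PGJ2-PC against 15d-PGJ2 (adjusted p = 0.00359).

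Among the class B genes of the cytosol, Dnajb4, Dnajb2 and Dnajb1 changed most. Dnajb4 (Entrez 67035, chr3:152178511-152210302, minus strand), a close relative of Dnajb1, held 26.5, 25.6 and 23.0 FPKM with 15d-PGJ2-PC, 39.4, 43.4 and 43.4 with 15d-PGJ2, and 5.15, 5.34 and 6.21 in control, with no overlap between the groups. Its mean was 4.50-fold that of control with 15d-PGJ2-PC (log2 change 1.99 ± 0.08, adjusted p = 6.5e-08) and 7.56-fold with 15d-PGJ2 (2.72 ± 0.08, adjusted p = 2.12e-09), and 15d-PGJ2-PC was lower than 15d-PGJ2 by a log2 change of -0.73 ± 0.08 (adjusted p = 9.71e-05). Dnajb2 (chr1:75236406-75245692, plus strand) carries ubiquitin-interacting motifs and hands clients to the proteasome. It held 20.5, 17.6 and 18.4 FPKM with 15d-PGJ2-PC, 32.0, 36.4 and 38.1 with 15d-PGJ2, and 5.36, 6.25 and 7.01 in control, again without overlap. Its mean was 3.04-fold that of control with 15d-PGJ2-PC (log2 change 1.47 ± 0.10, adjusted p = 2.19e-06) and 5.72-fold with 15d-PGJ2 (2.34 ± 0.10, adjusted p = 1.79e-08), and the change between the compounds was -0.88 ± 0.10 (adjusted p = 0.00012).

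Dnajb1 (Entrez 81489, chr8:83608193-83612653, plus strand), the classical stress-inducible Hsp40, held 29.1, 28.3 and 32.4 FPKM with 15d-PGJ2-PC, 42.5, 56.7 and 56.5 with 15d-PGJ2, and 13.2, 14.7 and 12.8 in control. The 3 groups were separate here too. The mean was 2.20-fold that of control with 15d-PGJ2-PC (log2 change 1.08 ± 0.11, adjusted p = 2.86e-05) and 3.82-fold with 15d-PGJ2 (1.85 ± 0.11, adjusted p = 1.52e-07), and 15d-PGJ2-PC differed from 15d-PGJ2 by -0.77 ± 0.11 (adjusted p = 0.000515). In Dnaja1, Dnaja2, Dnaja4, Dnajb1, Dnajb2, Dnajb4 and Dnajb6, replicate 1 of 15d-PGJ2 was the lowest of its group, and each of their calls passed without that library too. Dnajb6, which keeps aggregation-prone proteins soluble, averaged 73.8 ± 4.71 FPKM with 15d-PGJ2-PC, 83.2 ± 5.68 with 15d-PGJ2 and 61.7 ± 2.47 in control. It was higher than in control with 15d-PGJ2-PC (log2 change 0.25, adjusted p = 0.0102) and with 15d-PGJ2 (0.42, adjusted p = 0.000198), while the comparison between the compounds gave -0.17 (95% confidence interval -0.31 to -0.04, adjusted p = 0.0762). Dnajb5 lay between 4.12 and 5.64 FPKM in all 9 libraries and passed in no comparison.

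**Figure D3:**
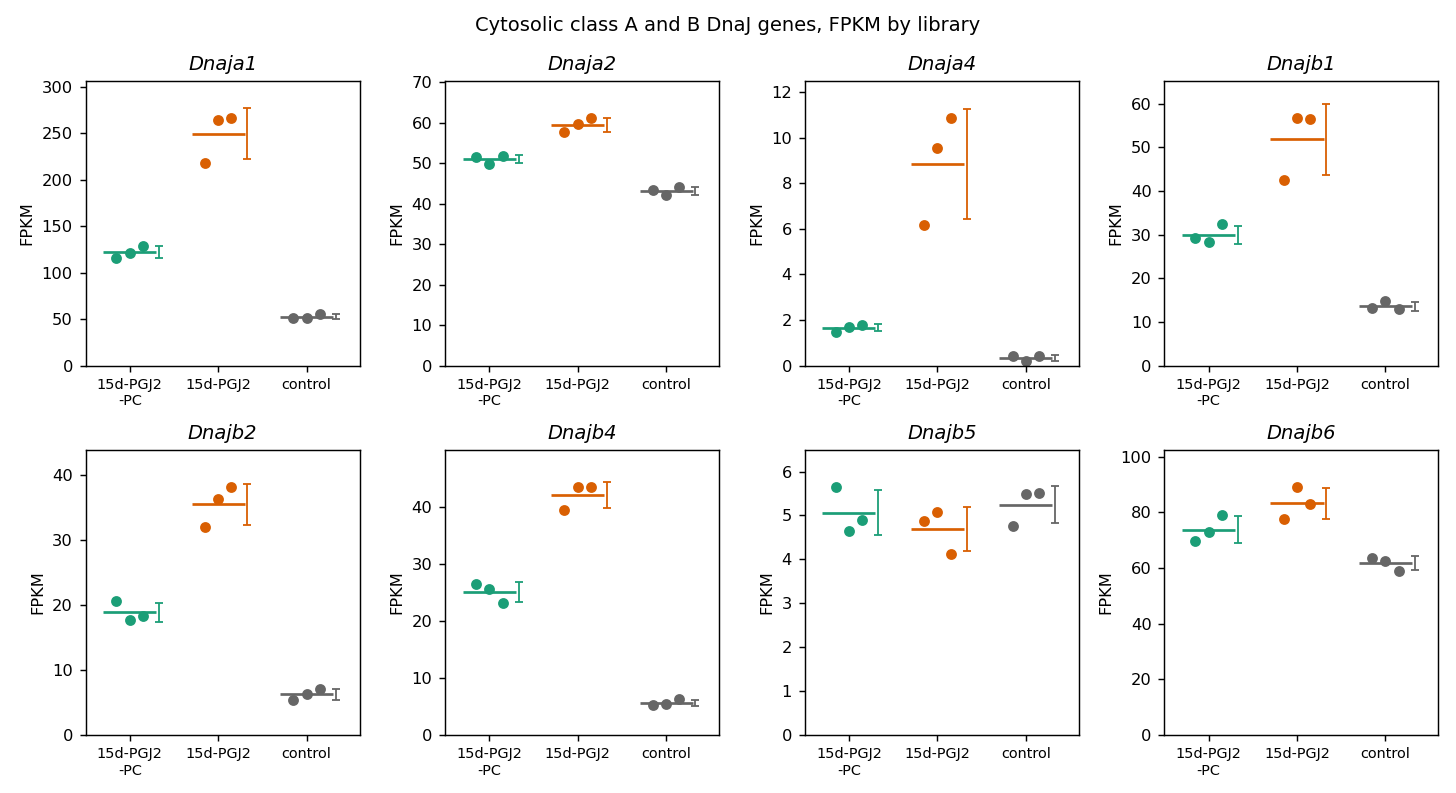
FPKM of the 8 cytosolic class A and B members in each of the 9 libraries (points), with each group's mean (line) and SD (bar), n = 3 per group and a separate linear axis from 0 for each gene. In Dnaja1, Dnaja2, Dnaja4, Dnajb1, Dnajb2 and Dnajb4 the 15d-PGJ2-PC libraries lie above every control library and below every 15d-PGJ2 library, and Dnajb5 shows no separation. The share of all tested genes with such separation was not computed.

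The promoters of 4 of these genes are shown because they hold the pairs of inverted repeats from which heat shock elements are built. RefSeq windows on GRCm38.p6, from 250 bases before to 50 bases after an annotated start site, were found for 35 of the 42 members. Both strands were read for GAANNTTC and for TTCNNGAA, which overlap where 3 repeats follow each other. At least 1 pair was present in 6 of the 35 members (Dnaja1, Dnaja4, Dnajb4, Dnajb6, Dnajc10 and Dnajc27) and in 17.0% of all 27025 genes with a window, so the share in the family is near the background. The longer element of 3 alternating repeats (GAA, TTC, GAA or TTC, GAA, TTC, each spaced by 2 bases) occurred in 0.662% of genes and in 1 member, Dnajb6. Capitals mark the matches in the 250 bases before the start site, which lie in chr4:40722218-40722467 (plus strand) for Dnaja1, chr9:54699309-54699558 (plus) for Dnaja4, chr3:152193846-152194095 (minus) for Dnajb4 and chr5:29735648-29735897 (plus) for Dnajb6. In the window shown, the match starts 124 bases before the start site in Dnaja1, 90 and 52 in Dnaja4, 14 in Dnajb4 and 46 in Dnajb6. Dnaja1 has 3 annotated windows and Dnaja4, Dnajb4 and Dnajb6 have 2 each, and only a window with a match is shown. For Dnaja1, Dnaja4 and Dnajb4 the other windows held no match. The other Dnajb6 window overlaps the one shown and holds the same site, which starts 127 bases before the start site of that window. The Dnaja1, Dnaja4 and Dnajb4 windows shown lie inside the gene spans given above. The Dnajb6 window shown lies partly inside its gene, which starts at chr5:29735688.
Dnaja1: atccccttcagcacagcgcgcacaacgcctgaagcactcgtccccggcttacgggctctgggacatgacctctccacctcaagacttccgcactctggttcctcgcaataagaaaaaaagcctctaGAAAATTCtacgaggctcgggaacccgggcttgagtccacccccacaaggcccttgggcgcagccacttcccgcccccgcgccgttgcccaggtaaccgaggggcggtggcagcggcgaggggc
Dnaja4: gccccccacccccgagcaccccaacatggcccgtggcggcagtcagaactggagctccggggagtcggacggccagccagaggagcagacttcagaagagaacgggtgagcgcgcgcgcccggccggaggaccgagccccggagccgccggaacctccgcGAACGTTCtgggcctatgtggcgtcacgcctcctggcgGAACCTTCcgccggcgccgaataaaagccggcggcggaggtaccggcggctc
Dnajb4: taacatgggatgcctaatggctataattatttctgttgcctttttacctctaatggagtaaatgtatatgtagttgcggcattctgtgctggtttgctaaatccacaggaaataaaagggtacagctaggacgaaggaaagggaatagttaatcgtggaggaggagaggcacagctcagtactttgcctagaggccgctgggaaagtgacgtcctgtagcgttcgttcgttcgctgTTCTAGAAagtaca
Dnajb6: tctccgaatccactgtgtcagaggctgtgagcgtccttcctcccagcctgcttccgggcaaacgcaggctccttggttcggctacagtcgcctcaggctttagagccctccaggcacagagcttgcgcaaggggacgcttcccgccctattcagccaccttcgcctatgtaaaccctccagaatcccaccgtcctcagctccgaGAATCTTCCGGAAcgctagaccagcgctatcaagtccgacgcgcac
The 3 genes Dnajb1, Dnajb2 and Dnaja2, which also rose, hold no such letters in these windows, and Dnajc27, which holds a pair, was lower with 15d-PGJ2 than in control. A match describes letters only and is neither a bound site nor a cause.

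The 8 ER members held calls in both directions. With 15d-PGJ2-PC, 2 were higher and 1 lower than in control (25.0% and 12.5%, beside 13.8% and 14.1% of all tested genes). With 15d-PGJ2, 3 were higher and 3 lower than in control (37.5% each, beside 22.2% and 25.0%), and 3 were higher and 0 lower with 15d-PGJ2-PC than with 15d-PGJ2 (37.5%, beside 12.3%). The 3 that were lower with 15d-PGJ2, Dnajb9, Dnajb11 and Dnajc3, are soluble co-chaperones of the ER lumen that work with the Hsp70 BiP. Dnajc10, also of the lumen, went the other way with 15d-PGJ2 (log2 change 0.25, adjusted p = 0.032), a call lost in 6 of 17 alternatives.

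Dnajb9 (ERdj4), which helps to clear misfolded proteins and holds back IRE1, stood at 30.1, 30.4 and 29.0 FPKM with 15d-PGJ2-PC, 24.4, 23.7 and 20.4 with 15d-PGJ2, and 28.0, 29.4 and 28.5 in control. The 15d-PGJ2 libraries lay below all others. It fell with 15d-PGJ2 (log2 change -0.32 ± 0.06, adjusted p = 0.00214) and was higher with 15d-PGJ2-PC than with 15d-PGJ2 (0.38 ± 0.06, adjusted p = 0.00212), while 15d-PGJ2-PC against control gave 0.06 (95% interval -0.09 to 0.20, adjusted p = 0.56). Dnajb11 (ERdj3), which binds nascent chains, held 47.8, 47.2 and 47.5 FPKM with 15d-PGJ2-PC, 42.8, 38.1 and 42.4 with 15d-PGJ2, and 52.8, 57.0 and 58.6 in control. Control libraries were highest and 15d-PGJ2 libraries lowest, without overlap. It fell with both compounds (log2 change -0.23 ± 0.06, adjusted p = 0.00963, with 15d-PGJ2-PC, and -0.44 ± 0.06, adjusted p = 7.39e-05, with 15d-PGJ2) and was higher with 15d-PGJ2-PC than with 15d-PGJ2 (0.21 ± 0.06, adjusted p = 0.0242). That last call was lost, among other settings, without 15d-PGJ2 replicate 2 or any 1 of the 15d-PGJ2-PC libraries, its adjusted p ranging from 0.0188 to 0.0853 over 17 alternatives.

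Dnajc3 (p58IPK), a BiP co-chaperone of class C that also restrains the kinase PERK, held 17.9, 18.3 and 19.2 FPKM with 15d-PGJ2-PC, 16.5, 14.6 and 14.8 with 15d-PGJ2, and 19.6, 20.0 and 21.2 in control. The groups did not overlap. It fell with 15d-PGJ2 (-0.39 ± 0.06, adjusted p = 0.000497) and was higher with 15d-PGJ2-PC than with 15d-PGJ2 (0.26 ± 0.06, adjusted p = 0.0148), a call lost without 15d-PGJ2 replicate 2 or 3 or without 15d-PGJ2-PC replicate 3 (0.00738 to 0.0585 over the alternatives). Against control, 15d-PGJ2-PC gave -0.13 (95% interval -0.27 to 0.01, adjusted p = 0.17).

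Dnajc10 (ERdj5), a disulfide reductase of the lumen, held 14.9, 14.5 and 15.1 FPKM with 15d-PGJ2-PC, 16.1, 17.4 and 15.4 with 15d-PGJ2, and 11.8, 13.7 and 15.3 in control, so that the lowest 15d-PGJ2 library lay just above the highest control. It passed against control with 15d-PGJ2 (log2 change 0.25 ± 0.09, adjusted p = 0.032), but the call did not hold without replicate 1 or 2 of 15d-PGJ2 or of control, and its adjusted p ranged from 0.00756 to 0.113 over the alternatives. Dnajb12 and Dnajb14 sit in the ER membrane with their J domains in the cytosol, where they work with Hsc70 in ER-associated degradation, and both were higher with either compound than in control. Dnajb12 averaged 32.3 ± 1.07 FPKM with 15d-PGJ2-PC, 37.4 ± 2.45 with 15d-PGJ2 and 22.8 ± 2.03 in control, with a log2 change against control of 0.49 for 15d-PGJ2-PC (adjusted p = 0.000397) and 0.69 for 15d-PGJ2 (adjusted p = 1.33e-05). Dnajb14 averaged 17.3 ± 0.843 FPKM with 15d-PGJ2-PC, 17.9 ± 1.13 with 15d-PGJ2 and 12.4 ± 0.958 in control, with a log2 change against control of 0.45 for 15d-PGJ2-PC (adjusted p = 0.000948) and 0.50 for 15d-PGJ2 (adjusted p = 0.00021). Between the compounds Dnajb12 gave -0.20 (95% interval -0.36 to -0.05, adjusted p = 0.0685) and Dnajb14 -0.05 (-0.21 to 0.11, adjusted p = 0.669). Dnajc1 and Dnajc14 passed in no comparison.

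**Figure D4:**
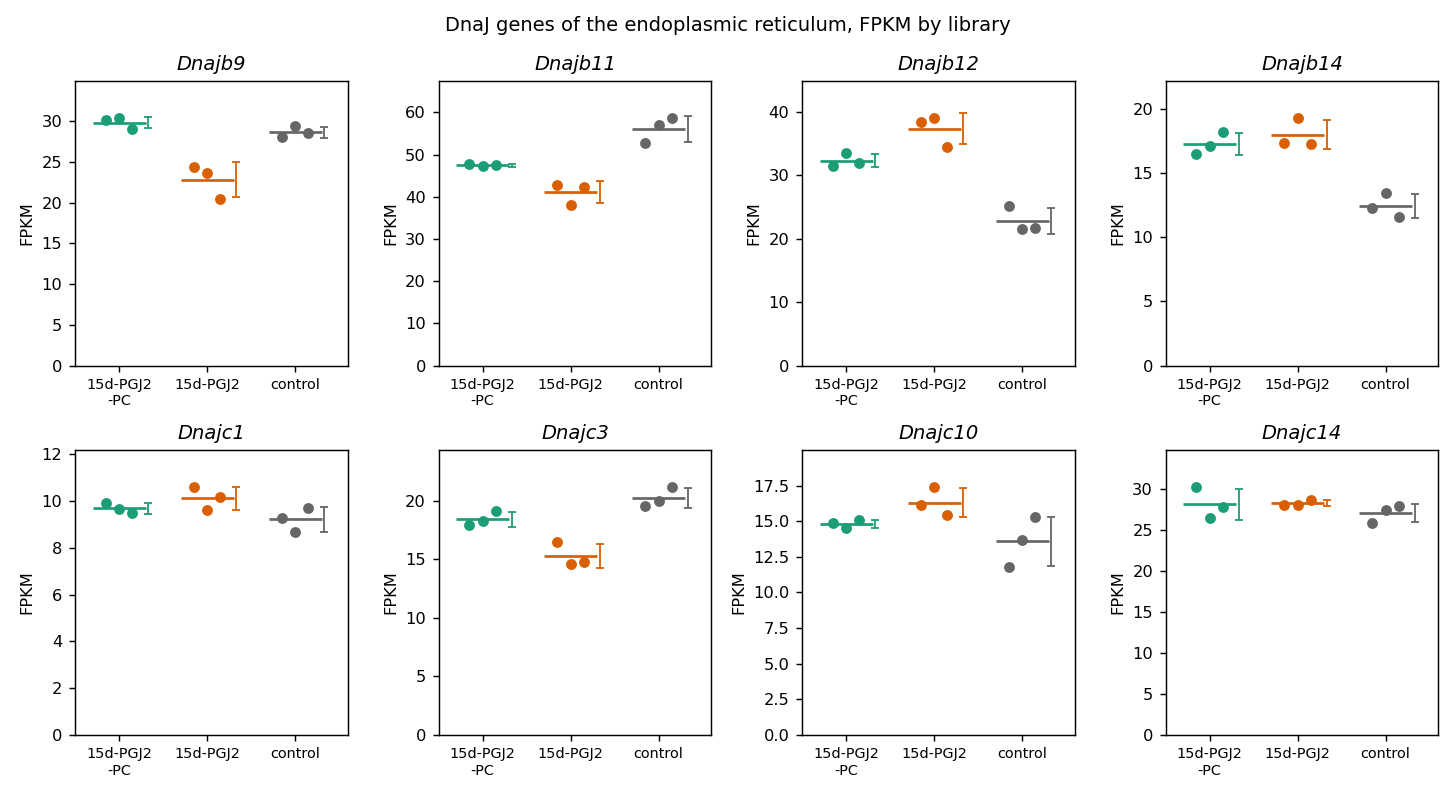
FPKM of the 8 ER members in each of the 9 libraries (points), with each group's mean (line) and SD (bar), n = 3 per group and linear axes from 0. Dnajb9, Dnajb11 and Dnajc3 are lowest in the 15d-PGJ2 libraries, whereas Dnajb12 and Dnajb14 are higher in all 6 treated libraries than in any control library.

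The ER members Dnajc3 and Dnajb11 hold the letters of ER stress elements, which bind factors of the unfolded protein response, and their sequences are shown for that reason. The element made of CCAAT and CCACG spaced by 9 bases was found in the windows of 37 genes (0.137%) and of 1 member, Dnajc3, starting 105 bases before its start site. The second element, ATTGG and CCACG spaced by 1 base, was found in 12 genes (0.0444%) and in 1 member, Dnajb11, where it starts 8 bases after the start site. The sequences, with matches in capitals, are chr14:118937682-118937931 (plus strand) for Dnajc3 and chr16:22857595-22857862 (plus strand), which runs 18 bases past the start site, for Dnajb11, from RefSeq on GRCm38.p6.
Dnajc3: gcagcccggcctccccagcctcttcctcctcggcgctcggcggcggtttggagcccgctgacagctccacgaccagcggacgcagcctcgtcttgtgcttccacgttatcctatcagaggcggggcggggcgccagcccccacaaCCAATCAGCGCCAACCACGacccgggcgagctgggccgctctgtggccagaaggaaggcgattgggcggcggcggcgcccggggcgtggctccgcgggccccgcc
Dnajb11: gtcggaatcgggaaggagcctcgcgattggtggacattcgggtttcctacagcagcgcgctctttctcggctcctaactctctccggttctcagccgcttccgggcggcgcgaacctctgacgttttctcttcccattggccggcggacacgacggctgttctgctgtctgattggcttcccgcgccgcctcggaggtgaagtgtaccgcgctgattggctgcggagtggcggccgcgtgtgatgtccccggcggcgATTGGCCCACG
The window of Dnajb9 holds neither element.

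Of the 5 mitochondrial members, Dnaja3 and Dnajc19 passed with 15d-PGJ2-PC against control, in opposite directions (20.0% each, beside 13.8% and 14.1% of all tested genes). Dnaja3 (Tid1), the class A partner of mitochondrial Hsp70, held 25.6, 25.1 and 24.9 FPKM with 15d-PGJ2-PC, 23.1, 23.4 and 25.1 with 15d-PGJ2, and 20.6, 23.3 and 19.7 in control. The 15d-PGJ2-PC libraries lay above all control libraries and overlapped those of 15d-PGJ2. Its log2 change with 15d-PGJ2-PC was 0.24 ± 0.07 (adjusted p = 0.0182, lost without 15d-PGJ2-PC replicate 1 or control replicate 1 or 3, range 0.00481 to 0.0642), and 15d-PGJ2 gave 0.17 ± 0.07 (adjusted p = 0.0588). Dnajc19, a subunit of the import motor at the inner membrane, held 16.7, 19.2 and 17.4 FPKM with 15d-PGJ2-PC, 19.8, 22.2 and 20.6 with 15d-PGJ2, and 23.3, 27.5 and 21.0 in control. The 15d-PGJ2-PC libraries were the lowest, and those of 15d-PGJ2 overlapped the controls. It fell with 15d-PGJ2-PC (-0.40 ± 0.09, adjusted p = 0.00794), and 15d-PGJ2 gave -0.18 ± 0.09 (adjusted p = 0.138). The compounds did not differ past the threshold in either gene (adjusted p = 0.463 for Dnaja3 and 0.122 for Dnajc19). Dnaja3 shares 153 exon bases with Coro7 on the opposite strand and 160 with Vasn on the same strand. With 15d-PGJ2 both were lower than in control (log2 change -0.54 and -0.48), and with 15d-PGJ2-PC only Coro7 was (-0.22). Dnajc19 shares 91 exon bases with Fxr1 on the opposite strand, which was higher with 15d-PGJ2-PC (0.28) and with 15d-PGJ2 (0.43). The part of these overlaps was not tested. Dnajc11, linked to cristae, passed with 15d-PGJ2 against control (log2 change 0.20 ± 0.07, adjusted p = 0.0345, range 0.00422 to 0.129, lost without replicate 2 or 3 of 15d-PGJ2 or replicate 1 or 3 of control). Pseudogenes of Dnaja1 and Dnajc19 are annotated and have no row of their own in the table, and how reads that match both were counted is not given in the sources used here.

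Among the other class C genes, the largest changes that passed were falls of Dnajc9 and Dnajc27 with 15d-PGJ2. Dnajc9, a histone chaperone, had the lowest log2(FPKM + 1) change of the family with 15d-PGJ2, though by ratio of means Dnajc27 fell further (0.533 against 0.598). Dnajc9 stood at 7.55, 6.90 and 6.93 FPKM with 15d-PGJ2-PC, 6.23, 4.27 and 5.92 with 15d-PGJ2, and 8.25, 9.64 and 9.57 in control. The 3 groups did not overlap, and the log2 change was -0.66 ± 0.12 with 15d-PGJ2 (adjusted p = 0.00097) and -0.32 ± 0.12 with 15d-PGJ2-PC (adjusted p = 0.0721). Between the compounds the change was 0.34 (95% interval 0.08 to 0.61, adjusted p = 0.0704). Dnajc27, a Rab-like GTPase with a J domain, held 1.55, 1.14 and 1.49 FPKM with 15d-PGJ2-PC, 1.14, 0.88 and 0.72 with 15d-PGJ2, and 1.73, 1.66 and 1.75 in control. All treated libraries lay below the controls. It fell with 15d-PGJ2 (-0.51 ± 0.14, adjusted p = 0.00992) on an estimated 18.3 to 44.7 reads per library. Its change with 15d-PGJ2-PC was -0.19 (95% interval -0.48 to 0.11, adjusted p = 0.352).

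Small rises with 15d-PGJ2 were found in Dnajc2, the ribosome-bound partner of nascent chains (log2 change 0.33, adjusted p = 0.000908), in Dnajc8, a splicing-associated protein (0.22, adjusted p = 0.00203), and in Dnajc5, the cysteine string protein of secretory vesicles (0.12, adjusted p = 0.0334). The Dnajc5 call was lost in 8 of 17 alternatives, with adjusted p from 0.00619 to 0.0984, among them without any 1 of the 15d-PGJ2 libraries or control replicate 1 or 2. With 15d-PGJ2-PC the log2 change was 0.15 for Dnajc2 (adjusted p = 0.0785), 0.10 for Dnajc8 (adjusted p = 0.144) and 0.03 for Dnajc5 (adjusted p = 0.585). For none of the 7 members that passed with 15d-PGJ2 but not with 15d-PGJ2-PC and did not differ between the compounds (Dnajc2, Dnajc5, Dnajc8, Dnajc9, Dnajc10, Dnajc11 and Dnajc27) is a difference between the compounds therefore shown. The remaining members of the ribosome, RNA and chromatin list (Dnajc17, Dnajc21 and Dnajc24), Dnajc13 of the endosome, the 7 tested members with other tasks (Dnajc4, Dnajc7, Dnajc12, Dnajc16, Dnajc18, Dnajc25 and Dnajc28), Dnajc15, Dnajc30 and Dnajb13 passed in no comparison. Dnajb13 shares 305 exon bases with Ucp2 on the opposite strand, which stood at 594 to 625 FPKM on average, and without strand its 0.47 to 1.56 FPKM cannot be told apart from reads of that gene. In all, 16 members share exon bases with another gene, 11 of them with a protein-coding gene on the opposite strand. Besides the partners of Dnaja3 and Dnajc19, some other opposite-strand partners passed with 15d-PGJ2 against control. These were Cnp (Dnajc7), Tmem198b (Dnajc14), Mllt10 (Dnajc1) and the noncoding Gm6297 (Dnaja1), the last at 0.48 to 2.36 FPKM on average.

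The main Hsp70 genes of the cytosol, ER and mitochondria, whose proteins these members serve, are given beside them. Hspa8 (Hsc70, cytosol) held 1972, 1953 and 2014 FPKM with 15d-PGJ2-PC, 3158, 3334 and 3441 with 15d-PGJ2, and 936, 910 and 924 in control, with wide gaps between the groups. Its log2 change was 1.10 ± 0.03 for 15d-PGJ2-PC against control, 1.84 ± 0.03 for 15d-PGJ2 against control and -0.74 ± 0.03 for 15d-PGJ2-PC against 15d-PGJ2 (adjusted p at most 5.93e-07). Hspa5 (BiP, ER lumen) held 349.8, 345 and 361 FPKM with 15d-PGJ2-PC, 239, 231 and 233 with 15d-PGJ2, and 391, 399 and 405 in control. Like Dnajb11, it fell with 15d-PGJ2-PC (-0.18, adjusted p = 0.00122) and with 15d-PGJ2 (-0.76, adjusted p = 1.24e-08) and was higher with 15d-PGJ2-PC than with 15d-PGJ2 (0.58, adjusted p = 1.89e-06). Hspa9 (mortalin, mitochondria) held 177, 183 and 182 FPKM with 15d-PGJ2-PC, 185, 195 and 193 with 15d-PGJ2, and 138, 140.0 and 149 in control, a rise of 0.34 with 15d-PGJ2-PC (adjusted p = 6.8e-05) and of 0.42 with 15d-PGJ2 (adjusted p = 5.14e-06), with -0.08 between the compounds (95% interval -0.16 to 0.0043, adjusted p = 0.173).

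Of 13 tested Hsp70 genes (15 listed), 8 were higher and 1 lower with 15d-PGJ2-PC than in control (61.5% and 7.69%). With 15d-PGJ2, 9 were higher and 2 lower than in control (69.2% and 15.4%). Between the compounds, 2 were higher and 6 lower with 15d-PGJ2-PC than with 15d-PGJ2 (15.4% and 46.2%). The shares of all tested genes in these comparisons were 13.8% and 14.1%, 22.2% and 25.0%, and 12.3% and 8.30%. Hspa1l, counted in all 3 comparisons, reached 1 FPKM in the 3 15d-PGJ2 libraries only, so it was tested only through the group where it is high. Among 15 nucleotide exchange factors and regulators of Hsp70, which release or tune the chaperone and include Bag3, Stip1 and the transcription factor Hsf1, 7 were higher and 0 lower with 15d-PGJ2-PC than in control, 9 were higher and 1 lower with 15d-PGJ2, and 5 were lower with 15d-PGJ2-PC than with 15d-PGJ2. Bag2, also counted in all 3, reached 1 FPKM in the 6 treated libraries only, so its passing the filter depended on the compounds. The J-domain genes under other names that were tested (Sec63, Gak and Hscb, of 4 listed) passed in no comparison. The comparisons share libraries, so their counts are not independent of each other.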

How the data were processed

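RNA of bone marrow-derived mouse macrophages was measured in 9 libraries, 3 each for 15d-PGJ2-PC, 15d-PGJ2 and control. The authors deposited 1 table of FPKM values, per the file headers, for 18049 genes. Genome build mm10 and the aligner BWA are named in the submitters' processing notes, while no source used here gives the BWA version or the counting tool. Every sample column was used.

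Count models were not used, since the values are FPKM. Values were moved to log2(FPKM + 1), and genes reaching 1 FPKM in 3 or more libraries were fitted with limma 3.58.1 (trend; R 4.3.3) over all 9 libraries without covariates, 2-sided. Adjustment was by Benjamini-Hochberg over all 11309 tested genes of a comparison (threshold 0.05). The procedure was tested on simulated data. Depth was read from the steps between low values of 562 to 775 short genes per library, of whose values 69.0% to 72.4% were whole reads within 0.1. Libraries of a group differed from each other by more than counting noise (variance ratio 1.33 to 2.50), so none was treated as a duplicate.

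The members and the lists of roles, partners and markers were chosen with earlier results of these data known, and counts over them are descriptions. Values of all 9 libraries are given for the passing members with the largest changes per class and comparison (up to 3, without overlap of libraries) and, whatever their result, for Dnajb9, Dnajb11, Dnajc3, Dnajc10, Hspa8, Hspa5 and Hspa9. Gene positions are 1-based on GRCm38 and promoter sequences are from RefSeq on GRCm38.p6. Alternatives were another pseudocount, no filter or 5 FPKM, quantile normalization, median centring, no trend, the 6 libraries of a comparison, a replicate block and leaving out each library.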

Additional observations from a re-analysis of the deposited data

How the results depend on the processing

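Calls were recomputed under 17 alternatives per comparison. Of the members that passed, 11 of 12 for 15d-PGJ2-PC against control, 16 of 19 for 15d-PGJ2 against control and 7 of 9 for 15d-PGJ2-PC against 15d-PGJ2 passed in every alternative in which they were tested. The exceptions were Dnaja3 with 15d-PGJ2-PC, Dnajc5, Dnajc10 and Dnajc11 with 15d-PGJ2, and Dnajb11 and Dnajc3 between the compounds. No member that passed changed sign. The number of members lower with 15d-PGJ2-PC than with 15d-PGJ2 was 11 after quantile normalization and 10 after median centring, against 6, and the cause was not tested. The number higher ranged from 1 to 4 when each library was left out in turn, being 1 without 15d-PGJ2 replicate 2 and without 15d-PGJ2-PC replicate 3, against 3. No pairing by replicate number was seen. Deviations from the group means correlated at -0.043 to 0.052 over the 9 pairs with the same number and at -0.07 to 0.098 over the 18 other pairs. A weak shared effect could not be seen in this way, and the labels name none. With a replicate block, 10 members were higher and 2 lower for 15d-PGJ2-PC against control, 13 and 6 for 15d-PGJ2 against control, and 3 and 7 for 15d-PGJ2-PC against 15d-PGJ2.

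Sums depended on their most abundant member by construction. Without Dnaja1, the family sum differed by 80.4 FPKM for 15d-PGJ2-PC against control, 170.1 for 15d-PGJ2 against control and -89.7 between the compounds, and class A by 13.2, 27.5 and -14.3 FPKM. Without Dnajb6, class B differed from control by 55.0 FPKM with 15d-PGJ2-PC and 103 with 15d-PGJ2. Without Dnajc8, class C differed from control by -5.53 FPKM with 15d-PGJ2-PC and 4.27 with 15d-PGJ2. The class C difference for 15d-PGJ2-PC against control, 0.04 FPKM, ranged from -5.45 to 3.68 when each library was left out. Depth limits the lowest members, Dnaja4 in control and Dnajc27 resting on an estimated 2.96 and 18.3 reads in their lowest libraries.

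Changes of sign were otherwise seen in members that did not pass. For 15d-PGJ2-PC against control, the log2 change on leaving out each library ranged from -0.11 to 0.0060 for Dnajb5, -0.13 to 0.050 for Dnajc18, -0.082 to 0.14 for Dnajc21, -0.0084 to 0.28 for Dnajc24, -0.084 to 0.073 for Dnajc30 and -0.037 to 0.048 for Dnajc7. It was -0.013 for Dnajc30 under quantile normalization. For 15d-PGJ2 against control, the log2 change on leaving out each library ranged from -0.21 to 0.12 for Dnajb13, -0.25 to 0.055 for Dnajc12, -0.20 to 0.079 for Dnajc17, -0.065 to 0.056 for Dnajc25, -0.097 to 0.14 for Dnajc28, -0.021 to 0.12 for Dnajc4 and -0.046 to 0.039 for Dnajc7. It was 0.0044 for Dnajb13 under quantile normalization, 0.0011 for Dnajc17 under median centring and 0.0048 for Dnajc25 under quantile normalization. For 15d-PGJ2-PC against 15d-PGJ2, the log2 change on leaving out each library ranged from -0.38 to 0.0091 for Dnajb13, -0.11 to 0.018 for Dnajc11, -0.35 to 0.020 for Dnajc12, -0.014 to 0.058 for Dnajc13, -0.059 to 0.034 for Dnajc14, -0.12 to 0.015 for Dnajc16, -0.022 to 0.16 for Dnajc18, -0.20 to 0.013 for Dnajc21 and -0.024 to 0.039 for Dnajc7. It was -0.027 for Dnajc7 under quantile normalization, -0.0094 for Dnajc7 under median centring and -0.0031 for Dnajc13 under quantile normalization.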
